A study of Homo sapiens with 15 samples.

Results

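A set of 10 genes of the death receptor pathway was followed in HCT116 xenograft tumors: FAS, TNFRSF10A, TNFRSF10D, TNFSF10, FADD, CASP8, CASP10, CFLAR, TRADD, and RIPK1. They are 10 of the 19483 genes that RefSeq names on the array, and they were read by 17 of its 34127 probes, chosen because the RefSeq accession that the array design gives for the probe maps to one of these genes. FAS had 3 probes, CASP10 had 4, CFLAR and TNFSF10 had 2 each, and the other genes had 1 each. All 17 passed the filter on dim probes, as did 30585 probes of the array; it asked that the 3 tumors of some construct all be well above background.

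In this pathway a ligand such as Fas ligand or TRAIL clusters its receptor at the cell surface, and the adaptor FADD then joins the receptor to procaspase 8 or procaspase 10 through matching death effector domains. Caspases that are brought together in this complex cleave themselves and start apoptosis, directly or by way of the mitochondria. The protein encoded by CFLAR, cFLIP, resembles caspase 8 but lacks its protease activity, and it competes for places in the complex. Colon carcinoma cells commonly carry FAS and TRAIL receptors.

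HCT116 is a human colon carcinoma cell line. The cells were transfected transiently with the empty vector, wild-type Myc-tagged MOAP-1, Myc-tagged MOAP-1 with the K264R or the K278R change (lysine to arginine), or, by the label alone, RASSF1A, and were grown in athymic nude mice, which lack T cells but keep other host cells. MOAP-1 is a pro-apoptotic partner of the TNF receptor, of RASSF1A, and of Bax. Tumors were excised at day 35, and 3 tumors per construct were hybridized to 15 single-color arrays with 1 tumor per array. The comparisons asked how tumors of a construct differed from vector tumors and from each other. A level below is log2 of the processed signal minus the 75th percentile of its array, so 0 is the 75th percentile and 1 unit is a 2-fold step, and levels of different probes are not comparable. A change is a difference between mean levels over 3 tumors each, and it passed when limma's Benjamini-Hochberg adjusted p over all 30585 probes was below 0.05 and the change was at least 1.5-fold. Adjusted p values throughout are from limma, and they measure the spread among these tumors only. Where the tumors of a construct are said to lie all above or all below others, this only describes the listed values. The share of all probes that separate in that way is not given here.

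In tumors with MOAP-1, K264R, or K278R, 1 FAS probe, the CASP8 probe, and 1 CFLAR probe were higher than in vector tumors, by 1.63- to 2.52-fold. With the normexp background model the FAS and CFLAR changes turned negative for MOAP-1 and K278R, and that of CFLAR also for K264R. The median change of all probes moved as well, to -0.53 for MOAP-1, -0.31 for K264R, and -0.46 for K278R. With 18 spots of extreme local background left out the one change that stayed negative was that of CFLAR for K264R. The probes that passed in the main fit were 3 of 17 in each comparison (17.6%), all of them higher. Over the whole array 16.6% of probes passed for MOAP-1 (9.87% as higher), 19.5% for K264R (9.32% as higher), and 10.9% for K278R (7.71% as higher). For MOAP-1 and K264R the share of the 17 probes that passed was thus close to the share over the whole array. At the adjusted p alone 6 of the 17 passed for MOAP-1 (30.5% of all probes), 6 for K264R (34.9%), and 4 for K278R (20.6%), FADD among them as lower in each. The median change of the 17 probes against vector was -0.03 for MOAP-1, -0.06 for K264R, and -0.02 for K278R, beside 0.02, -0.05, and 0.06 over all probes. No probe of the 10 genes passed for RASSF1A against vector (0% of all probes). There 3 of 17 probes had an unadjusted p below 0.05 at any fold (12.1% of all probes). The methods' t-test at unadjusted p below 0.05 and at least 1.5-fold also gave 0 (0.605%). The 4 comparisons share the 3 vector tumors.

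**Figure D1:**
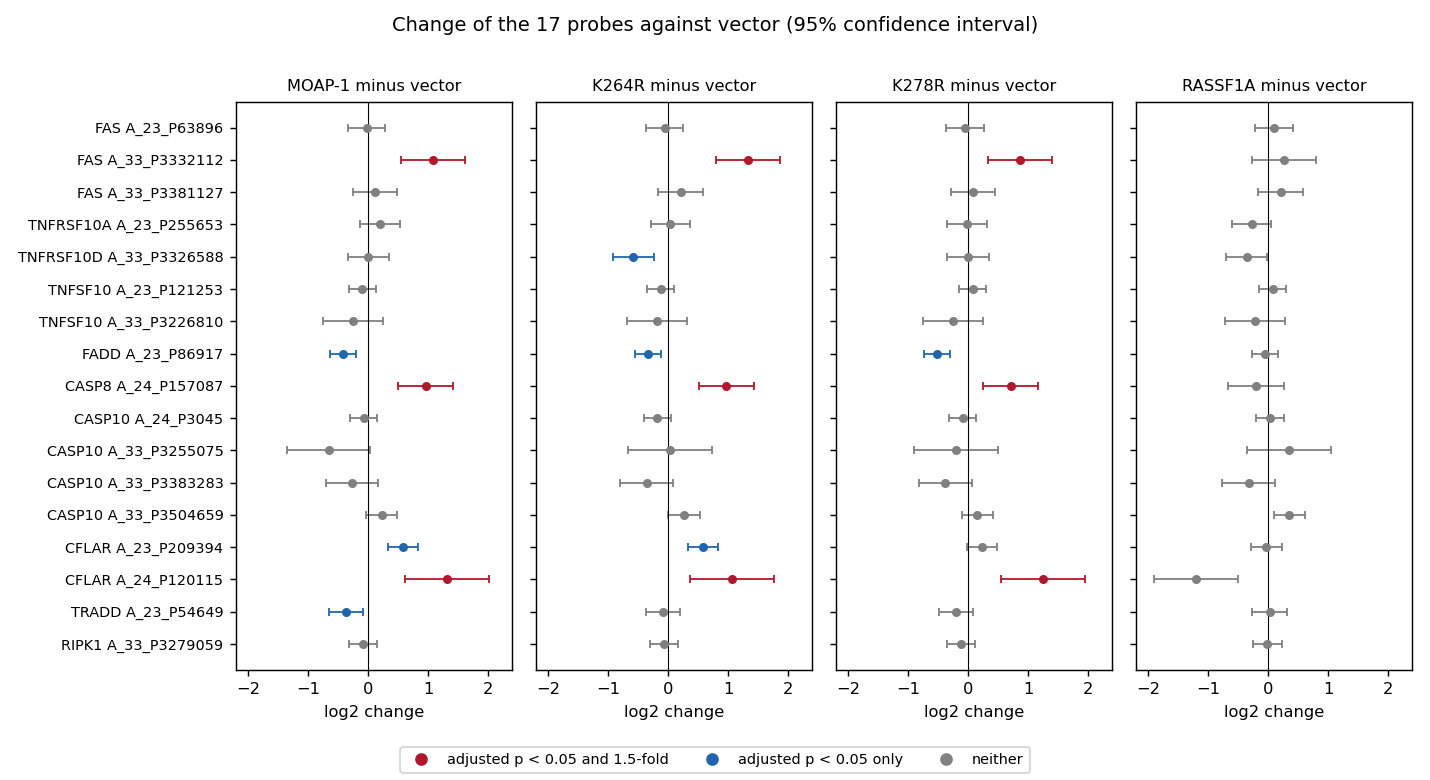
Log2 change of each of the 17 probes (rows) in MOAP-1, K264R, K278R, and RASSF1A tumors against vector tumors (panels), with points for the change and bars for the 95% confidence interval, n = 3 tumors per construct. Red points passed both thresholds and stand at FAS A_33_P3332112, CASP8, and CFLAR A_24_P120115 in the first 3 panels, and blue points passed the adjusted p only.

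Several measures of the arrays moved with the constructs. The 3 vector tumors and RASSF1A tumor 3 shared a slide, RASSF1A tumors 1 and 2 were on a slide scanned on a later day, MOAP-1 tumor 2 shared a slide with the 3 K278R tumors, and the 3 K264R tumors and MOAP-1 tumors 1 and 3 were on 2 further slides. For MOAP-1, K264R, and K278R against vector, slide and construct therefore cannot be told apart. The 75th percentile of the signal was 630 to 768 on the vector arrays, 613 to 816 for RASSF1A, 798 to 1023 for MOAP-1, 1171 to 1400 for K264R, and 496 to 1152 for K278R. All 6 genes of a colon epithelium list (EPCAM, KRT8, KRT18, KRT19, CDH1, and CLDN7) stood well above background on each of the 15 arrays. The log2 of their summed signal was 8.08 to 8.28 in vector tumors, 7.81 to 8.02 in MOAP-1, 7.68 to 7.86 in K264R, 7.54 to 8.04 in K278R, and 7.88 to 8.07 in RASSF1A. KRT19, at 7.47 in vector tumors, weighed most in the sum, and the probes did not move as one. In MOAP-1 tumors the changes against vector were -0.30 for KRT19, -0.42 for EPCAM, 0.49 for CLDN7, and 0.07 for CDH1. They were -0.21 and 1.07 for the KRT8 probes and 0.58 and -0.11 for the KRT18 probes. The sum over 7 leukocyte genes, all above background on every array, was 4.71 to 4.91 in vector tumors, 4.38 to 4.68 in MOAP-1, 4.26 to 4.45 in K264R, 4.57 to 4.78 in K278R, and 4.82 to 5.04 in RASSF1A. The sum over 7 fibroblast genes ranged widely. It was 1.16 to 4.39 in vector tumors, 2.69 to 5.56 in MOAP-1, and 2.31 to 4.36 in K264R. It was 3.76 to 5.49 in K278R and 3.12 to 3.69 in RASSF1A, with LUM not well above background on any array. In MOAP-1 tumors the changes of the kept fibroblast probes against vector ran from 0.79 (ACTA2) to 4.46 (DCN A_33_P3382856). That DCN probe (adjusted p = 0.011) and COL1A1 (2.24, adjusted p = 0.0408) passed, and the others did not. The sum over 5 endothelial genes was 1.07 to 1.24 in vector, 1.27 to 1.50 in MOAP-1, 1.19 to 1.89 in K264R, 1.24 to 1.49 in K278R, and 1.28 to 1.48 in RASSF1A tumors, with 4 of the 5 above background on every array. Over 2 erythroid genes it was 0.75 to 0.90 in vector, 1.00 to 1.38 in MOAP-1, 0.78 to 1.17 in K264R, 1.13 to 1.25 in K278R, and 0.84 to 1.04 in RASSF1A tumors. The host cells are of mouse and the probes are for human genes, so host RNA could be read only by cross-hybridization. In the leukocyte sum CD79A was brightest (4.25 in vector tumors), and CD3E, a T cell gene, was above background on all 15 arrays. How much of these sums comes from host cells was not tested. The part of these measures in the results was not tested. In bulk tumors fewer cells of a type and less RNA per cell cannot be told apart.

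The probes for the transfected genes were read first. The MOAP1 probe was higher in MOAP-1 tumors than in vector tumors by 0.86 ± 0.14 (SE, adjusted p = 0.000855) and in K278R tumors by 0.74 ± 0.14 (adjusted p = 0.00509). In K264R tumors it was higher by 0.55 ± 0.14, which passed the adjusted p (0.00928) but was 1.47-fold. The RASSF1 probe was at 1.56, 1.55, and 1.59 in the 3 tumors labelled RASSF1A and at 1.72, 1.52, and 1.81 in vector tumors, so the tumors labelled RASSF1A were not higher on it (change -0.12 ± 0.10, adjusted p = 0.67), and they are called RASSF1A tumors here by that label alone. Whether either probe reads the transcript of the transfected construct is not given in the sources used here.

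FAS encodes the receptor for Fas ligand. The study itself named FAS among genes that differed in these same MOAP-1 and vector tumors, so its change is not independent evidence. On the RefSeq annotation of GRCh38.p14 the gene lies at chr10:88964050-89017059. One of its 3 probes, A_33_P3332112, differed among the constructs. It was at -3.92, -3.73, and -3.61 in vector tumors 1, 2, and 3 and at -3.45, -3.61, and -3.42 in the RASSF1A tumors. It was at -2.81, -2.63, and -2.58 in the MOAP-1 tumors, -2.23, -2.74, and -2.30 in the K264R tumors, and -3.13, -3.39, and -2.15 in the K278R tumors. Every MOAP-1, K264R, and K278R tumor stood above every vector and RASSF1A tumor, and the K278R tumors were the most spread. How many of all probes separate like this is not given here. Against vector the probe was higher by 1.08 ± 0.25 in MOAP-1 tumors (SE, 2.12-fold, adjusted p = 0.0058). The rise was 1.33 ± 0.25 in K264R tumors (2.52-fold, adjusted p = 0.00129) and 0.86 ± 0.25 in K278R tumors (1.82-fold, adjusted p = 0.0272). Without K278R tumor 3 the K278R change was 0.49, and this call was lost as well without vector tumor 1 or 2 (adjusted p up to 0.0802).

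The other 2 FAS probes did not show this difference. Probe A_23_P63896, which is printed at 10 spots on each array, lay between -1.33 and -0.65 over the 15 tumors, and its change against vector was -0.03 in MOAP-1, -0.06 in K264R, -0.06 in K278R, and 0.10 in RASSF1A tumors (95% confidence interval for MOAP-1, -0.34 to 0.28; adjusted p = 0.893). Its spots varied within an array with a median SD of 0.03, less than the SD of 0.18 among tumors of a construct. Probe A_33_P3381127 lay between -2.17 and -1.26, and its change was 0.11 in MOAP-1 tumors (95% confidence interval, -0.26 to 0.48; adjusted p = 0.66). Its K264R and RASSF1A tumors all lay above the vector tumors, at 0.21 each, and neither passed (adjusted p = 0.38 and 0.646). All 3 probes carry the same RefSeq accession, and each passed the background test on every array. The 3 probes of FAS thus disagreed, and which of the gene's transcripts each one reads was not examined.

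**Figure D2:**
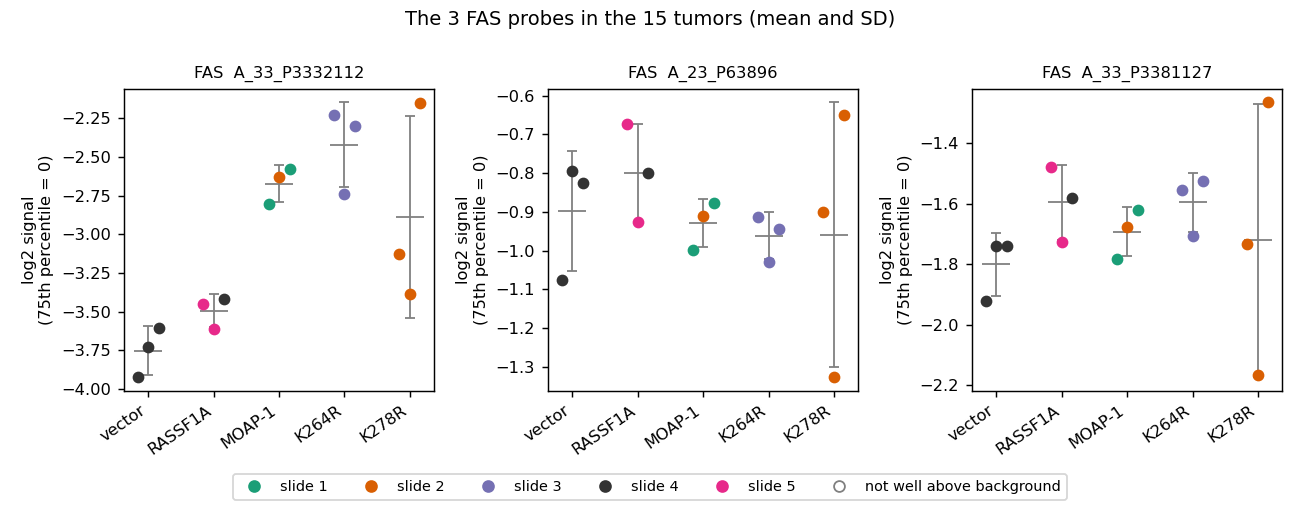
Log2 level (75th percentile of the array at 0) of the 3 FAS probes in each of the 15 tumors, one point per tumor colored by slide, with the mean and SD of each construct in grey. The first panel shows A_33_P3332112 with its lowest values, -3.92 to -3.61, in the vector tumors, and in the other 2 panels no construct differs from vector past the threshold, although all K264R and RASSF1A tumors lie above the vector tumors on A_33_P3381127.

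By order of mean level, A_33_P3332112 ran from vector through RASSF1A, K278R, and MOAP-1 to K264R. No neighbouring pair in this order differed past the threshold, since the step from RASSF1A to K278R was 0.61 ± 0.25 (adjusted p = 0.0817) and the step from vector to RASSF1A 0.26 ± 0.25 (adjusted p = 0.692). Tests between constructs further apart did pass, and MOAP-1 exceeded RASSF1A by 0.82 ± 0.25 (adjusted p = 0.0187) and K264R exceeded it by 1.07 ± 0.25 (adjusted p = 0.00384). The MOAP-1 call against RASSF1A was lost without MOAP-1 tumor 2 or 3 or RASSF1A tumor 2. A fit with scan day as a term left RASSF1A tumor 3 alone for RASSF1A, so it cannot show whether these calls held. Under it the differences from RASSF1A were 0.75 for MOAP-1 and 1.00 for K264R. K278R passed against RASSF1A without K278R tumor 2 (0.86, adjusted p = 0.0175), and K264R exceeded K278R without K278R tumor 3 (0.84, adjusted p = 0.0108).

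The promoter of FAS is printed because this gene and the CASP8 and CFLAR genes, whose promoters follow at their own results, carried the changes against vector. The sequence is from RefSeq (GRCh38.p14), and it holds the 250 bases before the transcription start in the table, at chr10:88990548-88990797 on the + strand, a start that lies inside the gene's full span. The 6 members with a promoter in that table were FAS, CASP8, CFLAR, FADD, RIPK1, and TNFSF10, and CASP10, TNFRSF10A, TNFRSF10D, and TRADD were not matched. Capitals mark matches on either strand to any of 5 motifs, with no overlap between matches in the 3 sequences shown. The GC box was searched as GGGCGG. The CCAAT box was searched by its own letters, and the TATA box was searched as TATAAA. The AP-1 site was searched as TGANTCA. For the STAT site the letters were TTCNNNGAA.
FAS: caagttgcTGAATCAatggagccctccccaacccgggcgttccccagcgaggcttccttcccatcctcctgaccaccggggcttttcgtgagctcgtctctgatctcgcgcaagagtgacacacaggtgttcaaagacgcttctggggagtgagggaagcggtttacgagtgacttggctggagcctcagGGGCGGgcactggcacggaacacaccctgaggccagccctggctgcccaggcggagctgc
This window held 1 GC box and 1 AP-1 site. Over the 35116 promoters of the same length in the table, 42.6% held a GC box, 32% a CCAAT box, 10.7% a TATA box, 6.57% an AP-1 site, and 6.57% a STAT site. A match is a description of the letters only, and the arrays do not measure promoters.

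TNFRSF10A and TNFRSF10D encode a TRAIL receptor that signals death and a TRAIL receptor that binds the ligand without a complete death domain. The TNFRSF10A probe ranged from -1.54 to -0.74 over the 15 tumors. Its change against vector was 0.19 in MOAP-1, 0.03 in K264R, -0.02 in K278R, and -0.28 in RASSF1A tumors, and none passed. It was higher in MOAP-1 than in RASSF1A tumors by 0.47 ± 0.15, past the adjusted p (0.0278) but 1.39-fold, and it passed both thresholds without RASSF1A tumor 3 (0.62, adjusted p = 0.00602). The decoy receptor TNFRSF10D was at 0.12, 0.20, and 0.40 in vector tumors, -0.13, -0.44, and -0.46 in K264R tumors, and 0.19 to 0.28 in MOAP-1 tumors. It was thus lowest in K264R tumors, which lay entirely below both other constructs. The K264R change of -0.58 ± 0.16 passed the adjusted p (0.0125) at 1.499-fold, just under the fold threshold, which it passed without K264R tumor 1 or vector tumor 1 or 2 (down to -0.69), while the MOAP-1 change was 0.00 (95% confidence interval, -0.35 to 0.34). The direct difference of MOAP-1 from K264R was 0.58 ± 0.16 and did not pass (adjusted p = 0.34, unadjusted p = 0.00285). In K278R tumors TNFRSF10D ranged from -0.14 to 0.54 and in RASSF1A tumors from -0.23 to 0.08.

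TNFSF10 encodes TRAIL, the ligand of these receptors. Its probe A_23_P121253, with 10 spots, stayed within -3.08 and -2.67 over the 15 tumors, and A_33_P3226810 within -4.87 and -3.84. Changes against vector lay between -0.13 and 0.07 for the first and between -0.26 and -0.19 for the second, and none passed. Without K278R tumor 2 the K278R change of the second was -0.59 and passed (adjusted p = 0.0242).

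FADD, the adaptor that joins receptor and caspase, was at 2.25, 2.35, and 2.38 in vector tumors and 2.24, 2.31, and 2.24 in RASSF1A tumors. It was at 1.89, 1.85, and 1.95 in MOAP-1 tumors, 2.07, 1.96, and 1.91 in K264R tumors, and 2.03, 1.68, and 1.69 in K278R tumors. All 9 tumors with MOAP-1 or a changed MOAP-1 lay below all 6 vector and RASSF1A tumors. The share of all probes with such a separation is not given here, and 43.3% differed among the constructs by the F test. FADD differed from vector tumors by -0.43 ± 0.10 in MOAP-1 (1.34-fold, adjusted p = 0.0071), -0.34 ± 0.10 in K264R (1.27-fold, adjusted p = 0.0182), and -0.53 ± 0.10 in K278R tumors (1.44-fold, adjusted p = 0.00506). None of these reached 1.5-fold, except that the K278R change was -0.64 (adjusted p = 0.00334) without K278R tumor 1. By mean level FADD ran from K278R through MOAP-1, K264R, and RASSF1A to vector, and of the steps between neighbours the one from K264R to RASSF1A passed the adjusted p (0.0404), with K264R minus RASSF1A at -0.28. Between RASSF1A and vector FADD differed by -0.06 (95% confidence interval, -0.28 to 0.15).

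TRADD, the adaptor of the TNF receptor, was at 0.46, 0.02, and 0.07 in MOAP-1 tumors and 0.47, 0.66, and 0.52 in vector tumors. The MOAP-1 values were all lower, and the change of -0.37 ± 0.13 was just past the adjusted p (0.0491) at 1.29-fold. Over all 5 constructs TRADD did not differ (F test adjusted p = 0.108). RIPK1, the kinase that acts in survival and necroptosis signaling at the same receptors, lay between 0.02 and 0.40 in all 15 tumors. Its changes against vector were -0.13 to -0.01, and the F test had an adjusted p of 0.778.

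CASP8 encodes the initiator caspase of the pathway and was read by 1 probe. It was at -1.98, -2.38, and -1.47 in vector tumors and at -2.22, -2.25, and -1.98 in RASSF1A tumors. It was at -0.91, -0.95, and -1.10 in MOAP-1 tumors, -0.97, -1.05, and -0.92 in K264R tumors, and -0.89, -1.68, and -1.15 in K278R tumors. MOAP-1 and K264R tumors lay above every vector and RASSF1A tumor, whereas K278R tumor 2, on the array with the lowest 75th percentile, fell within the vector range. Against vector CASP8 was higher by 0.96 ± 0.21 in MOAP-1 tumors (SE, 1.94-fold, adjusted p = 0.00502). The rise was 0.96 ± 0.21 in K264R (1.95-fold, adjusted p = 0.00393) and 0.70 ± 0.21 in K278R tumors (1.63-fold, adjusted p = 0.0345).

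The MOAP-1 and K264R calls of CASP8 held when any 1 of the 15 tumors was left out, with changes of 0.74 to 1.20. The K278R call was lost without K278R tumor 1 or 3 or vector tumor 1 or 2, with changes down to 0.49. CASP8 differed from RASSF1A tumors by 1.16 ± 0.21 in MOAP-1, 1.17 ± 0.21 in K264R, and 0.91 ± 0.21 in K278R tumors (adjusted p = 0.000996, 0.000859, and 0.00645). With scan day in the fit RASSF1A tumor 3 alone stood for RASSF1A. The differences were then 1.00 in MOAP-1, 1.00 in K264R, and 0.74 in K278R tumors. Whether the calls held cannot be judged from that tumor. In the order from RASSF1A through vector, K278R, and MOAP-1 to K264R, the step from vector to K278R passed and the other steps between neighbours did not. MOAP-1 and K264R differed by -0.01 (95% confidence interval, -0.46 to 0.45).

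CFLAR, CASP10, and CASP8 are neighbours on chromosome 2 in GRCh38.p14. CFLAR lies at chr2:201116164-201176687, CASP10 at chr2:201183141-201229406, and CASP8 at chr2:201233463-201287711, with 6453 bases between the first pair and 4056 between the second. CFLAR and CASP8 promoters, from the same table and on the + strand, lie at chr2:201118466-201118715 and chr2:201233213-201233462, with capitals as above.
CFLAR: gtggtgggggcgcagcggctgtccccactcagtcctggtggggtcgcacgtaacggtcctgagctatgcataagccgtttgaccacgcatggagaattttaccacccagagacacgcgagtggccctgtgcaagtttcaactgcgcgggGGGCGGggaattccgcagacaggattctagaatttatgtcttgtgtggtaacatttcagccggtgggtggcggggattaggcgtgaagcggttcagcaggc
CASP8: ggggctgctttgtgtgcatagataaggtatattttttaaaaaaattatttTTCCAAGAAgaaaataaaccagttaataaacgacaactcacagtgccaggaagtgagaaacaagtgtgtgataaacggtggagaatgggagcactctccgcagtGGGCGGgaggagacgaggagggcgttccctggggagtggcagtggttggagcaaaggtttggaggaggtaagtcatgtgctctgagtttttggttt
CFLAR held 1 GC box, and CASP8 held 1 GC box and 1 STAT site, so a GC box was in all 3 windows shown. The CFLAR start used here lies inside that gene's span, as for FAS. No probe of CASP10, which lies between these genes, passed against vector.

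CFLAR encodes cFLIP. Probe A_24_P120115 was dim, with a processed signal of 3.45 to 66.1 over the arrays, and was well above background on 14 of 15 arrays. It was at -5.27, -6.30, and -5.19 in vector tumors and -6.92, -7.47, and -5.98 in RASSF1A tumors, of which tumor 2 was not above background. It was at -4.26, -4.18, and -4.40 in MOAP-1 tumors, -4.55, -4.66, and -4.41 in K264R tumors, and -4.40, -4.40, and -4.26 in K278R tumors. These 9 tumors lay above all vector and RASSF1A tumors, a separation whose share over all probes is not given here. Against vector the probe was higher by 1.31 ± 0.32 in MOAP-1 tumors (2.48-fold, adjusted p = 0.0091), by 1.05 ± 0.32 in K264R (2.08-fold, adjusted p = 0.0232), and by 1.24 ± 0.32 in K278R tumors (2.36-fold, adjusted p = 0.0194). By mean level it ran from RASSF1A through vector, K264R, and K278R to MOAP-1, and of the steps between neighbours only that from vector to K264R passed. The MOAP-1 call held without any 1 tumor, but the K264R call was lost without K264R tumor 1 or 3 or vector tumor 2, and the K278R call without K278R tumor 3 or vector tumor 2.

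The second CFLAR probe, A_23_P209394, was above background on all arrays. It was at -2.0, -1.95, and -2.17 in vector tumors and -1.95, -2.30, and -1.96 in RASSF1A tumors. It was at -1.34, -1.5, and -1.57 in MOAP-1 tumors, -1.49, -1.55, and -1.36 in K264R tumors, and -1.93, -1.74, and -1.76 in K278R tumors. MOAP-1 and K264R tumors stood above all others, and K278R tumors lay between. The changes against vector of 0.57 ± 0.12 in MOAP-1 and 0.57 ± 0.12 in K264R tumors passed the adjusted p (0.00297 and 0.00229) at 1.49-fold each, just under the fold threshold. Both passed it without vector tumor 1 or 2, the MOAP-1 change also without MOAP-1 tumor 2 or 3, and the K264R change without K264R tumor 2 (up to 0.62). K278R differed from vector by 0.23 ± 0.12 (adjusted p = 0.168). Both CFLAR probes had the same direction in MOAP-1 and K264R tumors. MOAP-1 exceeded K278R by 0.34 ± 0.12 on this second probe, which did not pass (adjusted p = 0.471, unadjusted p = 0.0113).

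Against RASSF1A tumors the 2 CFLAR probes passed in MOAP-1 and K264R tumors. The change of A_24_P120115 was 2.51 ± 0.32 for MOAP-1 (5.71-fold, adjusted p = 0.000104), 2.26 ± 0.32 for K264R, and 2.44 ± 0.32 for K278R, and 2 of the 3 RASSF1A arrays measured it above background. The change of A_23_P209394 was 0.60 ± 0.12 for both MOAP-1 and K264R (1.52-fold, adjusted p = 0.00138 and 0.00121), and both fell under 1.5-fold without RASSF1A tumor 2, as did that for MOAP-1 without MOAP-1 tumor 1 and that for K264R without K264R tumor 3 (changes down to 0.49). With scan day in the fit RASSF1A tumor 3 alone stood for RASSF1A, so whether the calls held cannot be judged from it. The changes of A_23_P209394 were then 0.49 for both MOAP-1 and K264R. Those of A_24_P120115 were 1.70, 1.44, and 1.63 for MOAP-1, K264R, and K278R. RASSF1A differed from vector on A_24_P120115 by -1.20 ± 0.32, which did not pass (adjusted p = 0.342, unadjusted p = 0.0026). Without RASSF1A tumor 3 this change was -1.61 (adjusted p = 0.00884, with 4.62% of all probes passing), and on the shared slide that tumor 3 differed from the mean of the vector tumors by -0.39.

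**Figure D3:**
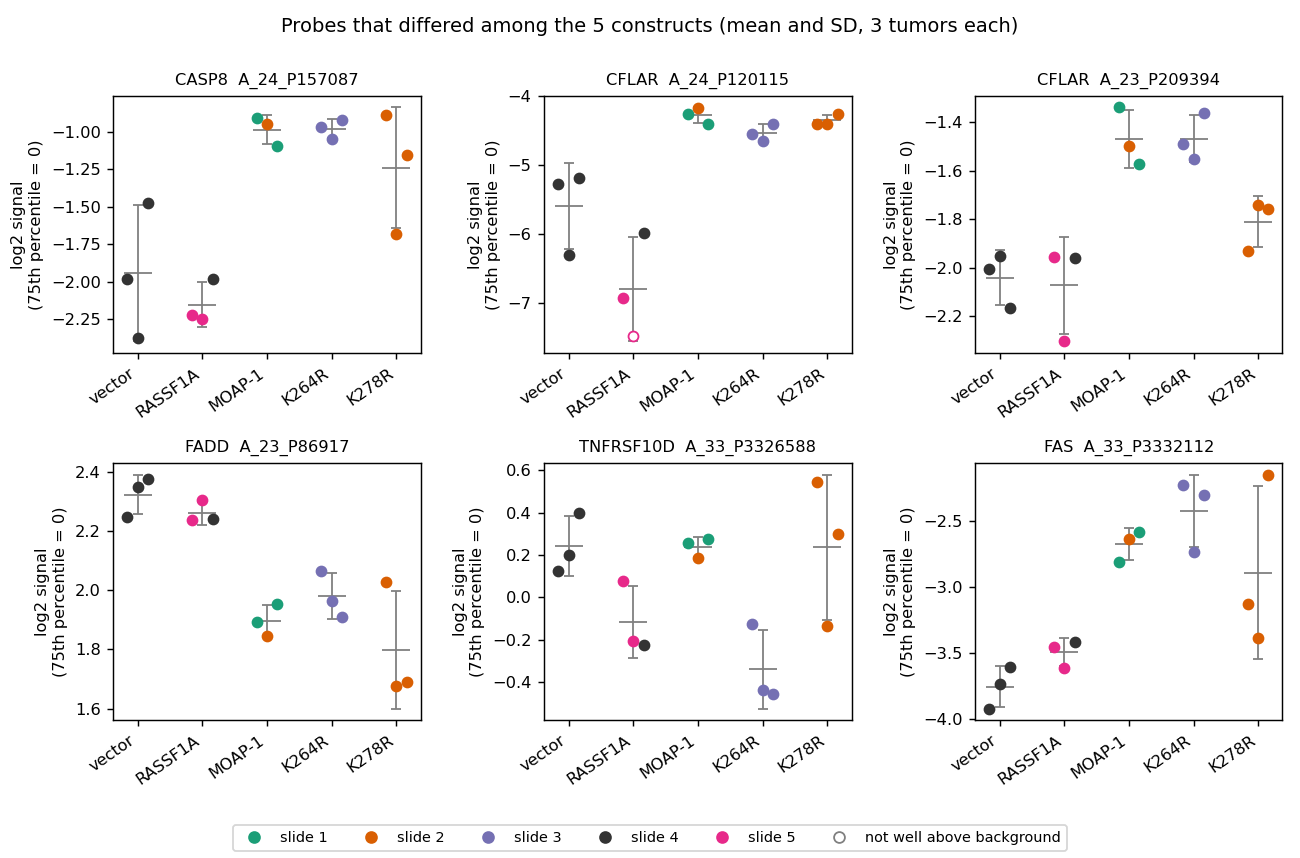
Log2 level (75th percentile of the array at 0) in each of the 15 tumors for the 6 probes with an F test adjusted p below 0.05 over the 5 constructs, one point per tumor colored by slide, with the mean and SD of each construct in grey and an open point for the tumor not well above background. On this scale CASP8, FAS, and both CFLAR probes are higher and FADD is lower in MOAP-1 and K264R tumors than in vector tumors. Under the normexp background model the FAS probe and both CFLAR probes turn negative in MOAP-1 tumors, where the median change of all probes is -0.53.

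CASP10 encodes the initiator caspase closest to caspase 8 and had 4 probes, none of which passed in any comparison with vector. Probe A_24_P3045 ranged from -4.32 to -3.94, A_33_P3383283 from 3.27 to 4.30, and A_33_P3504659 from -2.17 to -1.61. The fourth, A_33_P3255075, was at background in part, with 9 of 15 arrays well above it. It was at -7.58, -7.29, and -6.90 in MOAP-1 tumors, none above background, and at -5.77, -6.09, and -6.89 in RASSF1A tumors, all above it. It was at -7.19, -6.25, and -6.34 in vector tumors, -6.68, -6.42, and -6.60 in K264R tumors, and -6.28, -6.81, and -7.29 in K278R tumors, so the MOAP-1 tumors were low and overlapped vector and K278R. On the measured values the MOAP-1 minus RASSF1A difference was -1.01 (adjusted p = 0.0257). For a second reading, each MOAP-1 array was taken at the lowest level measured above background on it where that exceeded the probe. RASSF1A tumors were then 1.59-fold higher than MOAP-1 tumors, which was not tested and is not a strict lower bound. RASSF1A tumor 3 (-6.89) and MOAP-1 tumor 3 (-6.90) were almost equal. The call was lost without MOAP-1 tumor 1 or 2 or RASSF1A tumor 1 or 2. With scan day in the fit, which leaves RASSF1A tumor 3 alone for RASSF1A, the difference was -0.37. Against vector the MOAP-1 change of this probe passed without vector tumor 1 (-0.96, adjusted p = 0.0492).

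Over the 5 constructs together, 6 of the 17 probes differed by the F test (adjusted p below 0.05), against 43.3% of all probes. They were FAS A_33_P3332112, TNFRSF10D, FADD, CASP8, and both CFLAR probes. In direct comparisons among MOAP-1, K264R, and K278R tumors no probe of the 10 genes passed, where 0.00327% of all probes passed for MOAP-1 against K264R, 0% for MOAP-1 against K278R, and 0.618% for K264R against K278R. Unadjusted p values were below 0.05 at any fold for 1, 1, and 2 of the 17 probes in these comparisons. The shares of all probes were 10.7%, 9.22%, and 27.6%. The methods' t-test at unadjusted p below 0.05 and at least 1.5-fold gave 1, 0, and 0, beside 1.01%, 0.474%, and 3.05%. The probe given by it was CASP10 A_33_P3255075, at -0.69 for MOAP-1 against K264R. Against RASSF1A tumors 5 probes passed for MOAP-1 (21.2% of all probes), 4 as higher (13%) and 1 as lower (8.14%). For K264R 4 passed (23.4%), all higher (12%), and for K278R 2 passed (16%), both higher (11.5%). At the adjusted p alone the counts were 8 (37.2%), 5 (40.2%), and 3 (29.2%). With the scan day in the fit RASSF1A tumor 3 alone stood for RASSF1A, so no count against RASSF1A is given for that fit.

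For the CFLAR probe A_24_P120115 and for CASP8, which had the smallest F test p values of the 17 probes, the named genes most like them over the 15 tumors were read as a description. Pearson's r with the CFLAR probe was 0.990 for RACK1, a ribosome-bound scaffold, 0.987 for RAB13, and 0.987 for CDK5RAP3. With the CASP8 probe it was 0.983 for MAGEA12 and 0.979 for ZNF32. These points share arrays, slides, and the percentile that sets each array to 0, and the genes were found by searching all probes.

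A further 40 genes of the pathway were read as background to the 10, and 39 had a probe (all but TNFRSF6B), with 53 probes kept. In MOAP-1 against vector 8 of the 53 passed as higher and 5 as lower, for K264R 9 and 5, for K278R 4 and 1, and for RASSF1A none. Of all probes 9.87% passed as higher and 6.7% as lower for MOAP-1, 9.32% and 10.2% for K264R, and 7.71% and 3.21% for K278R, and the counts of the lists that follow stand beside these shares. Of 11 kept probes for other receptors and ligands, TNFRSF11B alone passed against vector, a decoy receptor that binds TRAIL, at -0.63 in MOAP-1 and -0.89 in K264R tumors. Neither TNFRSF10B, the other TRAIL receptor that signals death (0.00, adjusted p = 0.976), nor TNFRSF1A (0.22, adjusted p = 0.23) passed in MOAP-1 tumors.

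Of 22 probes for adaptors, ubiquitin ligases, and inhibitors at the receptor, 4 were higher and 2 lower in both MOAP-1 and K264R tumors. PEA15, a death effector domain protein that binds FADD and caspase 8, was higher at both probes in MOAP-1 tumors, by 1.04 ± 0.22 (adjusted p = 0.00361) and 0.75 ± 0.12 (adjusted p = 0.000606). CASP8AP2, a caspase 8 partner, was higher by 0.90 ± 0.17 in MOAP-1 and 1.05 ± 0.17 in K264R tumors. RBCK1, a subunit of the linear ubiquitin ligase, had probes that disagreed, at -0.88 and 0.66 in MOAP-1 tumors. The remaining lower probe was for XIAP, a caspase inhibitor, at -0.60 (named because the count is small, after its value was seen).

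Among 16 probes of genes that act after caspase 8, 4 were higher and 1 lower in MOAP-1 tumors, and 5 and 1 in K264R tumors. The lower one was DFFA, the inhibitor of the nuclease that cuts DNA in apoptosis, at -1.05 ± 0.14 in MOAP-1, -1.10 ± 0.14 in K264R, and -0.66 ± 0.14 in K278R tumors. CASP6, an executioner caspase, was higher by 0.83 ± 0.17 in MOAP-1 tumors. BAX and BAK1, which open the mitochondrial membrane, were higher in all 3 comparisons, BAX by 0.68 ± 0.15, 0.63 ± 0.15, and 0.90 ± 0.15 and BAK1 by 0.72 ± 0.20, 0.82 ± 0.20, and 0.61 ± 0.20 in MOAP-1, K264R, and K278R tumors. In the necroptosis list of 4 probes ZBP1 was the lower one, at -0.61 in MOAP-1 and -0.66 in K264R tumors (named for the same reason as XIAP), while RIPK3 and MLKL did not pass.

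The FAS and CFLAR changes against vector depended on how background was modeled. With the normexp model applied to all spots, from spot and local background medians, the median change of all probes against vector moved to -0.53 for MOAP-1, -0.31 for K264R, and -0.46 for K278R. Under it FAS A_33_P3332112 was at -0.56 in MOAP-1 and -0.58 in K278R tumors, and CFLAR A_24_P120115 at -1.14, -0.54, and -1.12 in MOAP-1, K264R, and K278R tumors, so these changes turned negative, while FAS A_33_P3332112 stayed at 0.18 in K264R tumors. The other CFLAR probe, A_23_P209394, was at -0.12 in MOAP-1, 0.17 in K264R, and -0.35 in K278R tumors under normexp. CASP8 kept its direction with no call, and with 18 spots of extreme local background left out it passed in MOAP-1 (0.71, adjusted p = 0.00447) and K264R tumors (0.73, adjusted p = 0.00151). Under that last setting the median change of all probes was -0.16 for MOAP-1, -0.28 for K264R, -0.09 for K278R, and -0.07 for RASSF1A. FAS A_33_P3332112 was again above 0, at 0.33 in MOAP-1, 0.43 in K264R (adjusted p = 0.0151), and 0.30 in K278R tumors, with none at 1.5-fold. The CFLAR probe A_24_P120115 was at 0.04 in MOAP-1, -0.32 in K264R, and 0.06 in K278R tumors, so 1 of the 20 calls of the members was reversed there, against 5 under normexp on all spots. In the authors' own log2 table all 20 calls of the members were kept.

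**Figure D4:**
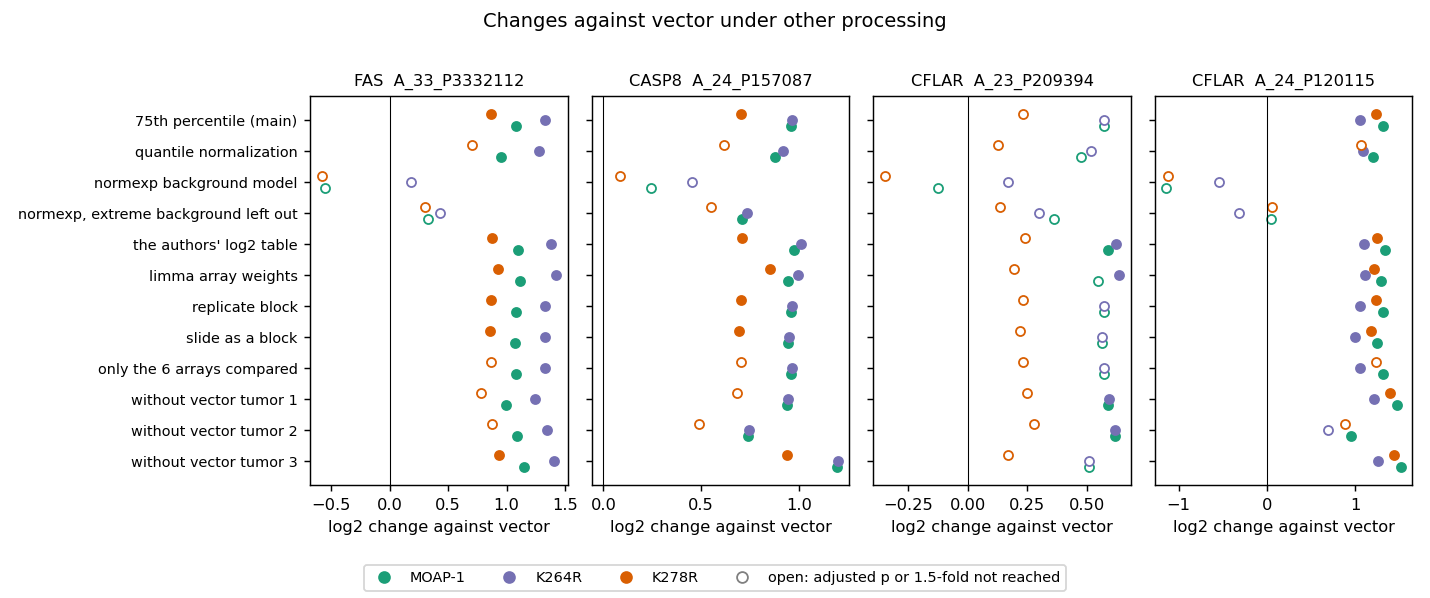
Log2 change against vector in MOAP-1, K264R, and K278R tumors (colors) for 4 probes (panels) under selected ways of processing (rows). Points are filled where the adjusted p was below 0.05 and the change at least 1.5-fold. The methods' t-test, scan day, the other filters, and left-out tumors other than vector are not drawn. CASP8 stays above 0 in every row shown. Under normexp FAS A_33_P3332112 falls to -0.56 in MOAP-1 tumors and CFLAR A_24_P120115 to -1.14, beside a median of -0.53 over all probes.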

How the data were processed

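RNA from 15 HCT116 xenograft tumors was labelled with Cy3 and hybridized to Agilent 4x44K arrays. The authors deposited Agilent Feature Extraction output (version 10.5.1.1 in the file headers, 9.1 in the submitters' processing notes), in which the processed signal is a background-corrected intensity. A second deposited table holds log2 values from GeneSpring GX, and in it 8 columns follow the array of their label and 7 follow a different array of that construct. Its direction and scale were checked against the arrays (column medians -0.08 to 0.05).

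Here flagged and control spots were removed, log2 signals were set to 0 at each array's 75th percentile, and the spots of a probe were averaged. Probes were kept where well above background in all 3 tumors of a construct. Gene names come from RefSeq accessions (74.5% of probes). One limma model (version 3.58.1, R 4.3.3) took all 15 arrays, construct being its single term, which left 10 residual degrees of freedom. 95% confidence intervals are unadjusted. Arrays give no counting depth, precision rests on the tumor number, and no spot was saturated. The fit was tested on simulated data.

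The members and lists were chosen with earlier results of these data known. Every probe of the 10 genes is accounted for, with all tumors given for probes that passed. For other pathway genes up to 3 higher and 3 lower probes per comparison with vector are named. A gene among those most like CASP8 over the tumors is not reported here. Alternatives were quantile normalization, normexp (offset 50) on spot medians, other filters, the authors' table, array weights, the methods' t-test, scan day, slide, or replicate number as a term, and leaving out each tumor. Tumors of the same number deviated with r from -0.25 to 0.37 (median 0.11), and those of different numbers from -0.47 to 0.45 (median -0.04). As the ranges overlapped, the numbers were not taken as pairs in the main fit.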

Additional observations from a re-analysis of the deposited data

Results flagged for a closer look

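For 11 changes, 2 constructs differed in a direct test, so that their changes against the shared vector tumors differed. FAS A_33_P3332112 was higher than in RASSF1A tumors by 0.82 in MOAP-1 and 1.07 in K264R tumors. CASP8 was higher by 1.16 in MOAP-1, 1.17 in K264R, and 0.91 in K278R tumors. CFLAR A_23_P209394 was higher by 0.60 in MOAP-1 and 0.60 in K264R tumors, and CFLAR A_24_P120115 by 2.51, 2.26, and 2.44 in MOAP-1, K264R, and K278R tumors. CASP10 A_33_P3255075 differed by -1.01 between MOAP-1 and RASSF1A tumors, with no MOAP-1 array well above background. RASSF1A tumors 1 and 2 were on a slide scanned on a later day. With scan day in the fit RASSF1A tumor 3 alone stood for RASSF1A, so that fit cannot show whether the 11 differences held. The differences under it are given at the results of FAS, CASP8, CFLAR, and CASP10.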

How the results depend on the processing

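The counts that follow are of the 17 probes, with the share of all probes in percent. MOAP-1 against vector (3, 16.6%) became 0 under normexp (1.71%) and 1 under normexp without extreme spots (9.04%). It was 1 by the methods' t-test after Benjamini-Hochberg adjustment (8.61%) and 6 at any fold (30.5%). When 1 tumor was left out it was 3 to 5 (12.3% to 18.6%). K264R against vector (3, 19.5%) became 0 under normexp (3%), 6 with array weights (21.9%), and 1 by the adjusted t-test (14.1%). It was 6 at any fold (34.9%) and 2 to 5 without 1 tumor (16% to 22.1%). K278R against vector (3, 10.9%) became 0 with quantile normalization (8.68%) and 0 under both normexp settings (0.00327% and 4.25%). It was 0 with only the 6 arrays compared (3.81%) and 0 by the adjusted t-test (0%). By the unadjusted t-test it was 1 (10.2%), and without 1 tumor it was 0 to 4 (5.5% to 12.8%). RASSF1A against vector (0) was 0 to 1 without 1 tumor (0% to 4.62%). MOAP-1 against K264R (0) was 1 with array weights (4.64%) and 1 by the unadjusted t-test (1.01%). K264R against K278R (0) was 1 with array weights (5.45%) and 0 to 1 without 1 tumor (0.0196% to 5.43%). MOAP-1 against RASSF1A (5, 21.2%) became 3 with quantile normalization (20.7%) and 1 under both normexp settings (7.38% and 12.4%). It was 3 with the filter on all arrays (21.3%), 8 at any fold (37.2%), and 2 to 6 without 1 tumor (18.7% to 23.5%). That filter leaves CFLAR A_24_P120115 and CASP10 A_33_P3255075 untested. All 13 calls on the probes it keeps held. K264R against RASSF1A (4, 23.4%) became 1 and 2 under normexp with and without extreme spots (3213 and 7106 of 30585). K278R against RASSF1A (2, 16%) became 0 and 1 under these normexp settings (4.29% and 8.92%). It was 1 with the filter on all arrays (16.1%), which leaves CFLAR A_24_P120115 untested, and 0 by the adjusted t-test (1.53%). Scan day is left out of the counts against RASSF1A, since it leaves RASSF1A tumor 3 alone. The count that differed by the F test (6, 43.3%) became 0 under normexp (6.58%) and 9 under normexp without extreme spots (56%). It was 8 with quantile normalization (40.9%) and 5 to 8 without 1 tumor (34.6% to 46.5%). Reversed changes against vector under normexp were -0.56 (MOAP-1) and -0.58 (K278R) for FAS A_33_P3332112. For CFLAR A_24_P120115 they were -1.14, -0.54, and -1.12 (MOAP-1, K264R, K278R), and it was also -0.32 for K264R without extreme spots. Under normexp on all spots the medians of all probes were -0.53, -0.31, and -0.46 for MOAP-1, K264R, and K278R.

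Of the 20 calls, 20 held with the replicate block, array weights, no filter, and the authors' table. With quantile normalization 14 held, under normexp without extreme spots 5, and under normexp 2. By the methods' t-test 10 held after Benjamini-Hochberg adjustment and 17 at the unadjusted threshold, and 17 held with only the 6 arrays compared. All 20 also held with slide as a random block, but the estimated slide correlation was -0.0765. Against vector slide cannot be told apart from construct, so that setting cannot show that slide had no part. With the replicate block the count of K278R against RASSF1A was 3, with FAS A_33_P3332112 added (0.61, adjusted p = 0.0499), and the other counts were as without it. The cause of the changes was not tested.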
